A study of Mus musculus with 2 samples.

Results

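The genes described here are 8 markers of Schwann cells and of sustentacular cells, the glia-like support cells of the adrenal medulla: Sox10, S100b, Mbp, Fabp7, Erbb3, Foxd3, Cdh19 and Pmp22. They were taken by symbol from a given list of markers, and all 8 were found among the 55536 annotated genes. Total RNA was sequenced from the adrenal gland of 2 female B6CASTF1/J mice, adults of 8 to 10 months. This strain is the first-generation hybrid of C57BL/6J and CAST/EiJ, so each animal carries 1 allele from each parent. There is 1 group and no treatment or control, and the animals are called replicate 1 and replicate 2 as in the labels. The labels give both libraries the same donor code but separate animal numbers, and they were taken as separate animals. With 1 group of 2 animals no test was made, since the smallest exact 2-sided p that 2 paired animals allow is 0.5. Each value is therefore set beside the other animal and beside the same measure over all genes.

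Schwann cells wrap peripheral axons. Myelinating Schwann cells build a myelin sheath around 1 axon, with Mbp and Pmp22 among its main proteins, while non-myelinating (Remak) Schwann cells hold several thin axons and keep immature features such as Ngfr, Gfap and L1cam. Sustentacular cells of the medulla lie around clusters of chromaffin cells, carry S100b and Sox10, and arise like Schwann cells from the neural crest. Sox10 is the transcription factor that the whole lineage depends on, Erbb3 is the receptor through which it receives neuregulin, and Foxd3 is a crest regulator kept in glial precursors.

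Sequencing depth was 40362256 expected counts over genes in replicate 1 and 34235715 in replicate 2. A limit of 3 counts corresponds to 0.0743 and 0.0876 CPM. Markers of adrenal cortex and of chromaffin cells were abundant: Star, which delivers cholesterol to the steroid pathway, had 6318.71 and 5650.12 TPM (a transcript level corrected for length and depth), and Chga, the core protein of chromaffin granules, had 773.53 and 751.84 TPM. The tissue label matched these markers. In bulk tissue, fewer cells of a type and less RNA per cell cannot be told apart, which holds for every level below.

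Pmp22 stood far above the other 7 genes. Its level was 39.81 TPM in replicate 1 and 41.95 TPM in replicate 2, against a mean of 4.91 ± 1.24 TPM (SD, n = 2) for Mbp, the next in order. The mean levels then ran S100b 3.46 ± 2.18, Cdh19 1.22 ± 0.0212, Erbb3 1.10 ± 0.339, Sox10 0.590 ± 0.339, Fabp7 0.245 ± 0.219 and Foxd3 0.140 ± 0.0566 TPM. Neighbouring pairs changed places between the animals. Mbp lay above S100b in replicate 2 and below it in replicate 1. Erbb3 lay above Cdh19 in replicate 2 and below it in replicate 1. Foxd3 and Fabp7 exchanged the last place. The order within these pairs is therefore not fixed by the data. Pmp22 exceeded 92.2% of nuclear protein-coding genes and Mbp 59.1%, while Sox10 exceeded 40.7% and Foxd3 32.8%. S100b, Mbp, Cdh19 and Pmp22, 4 of the 8, reached 1 TPM in both animals, where 54.5% of protein-coding genes and 23.8% of all genes did so. The count is near the share for protein-coding genes.

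**Figure D1:**
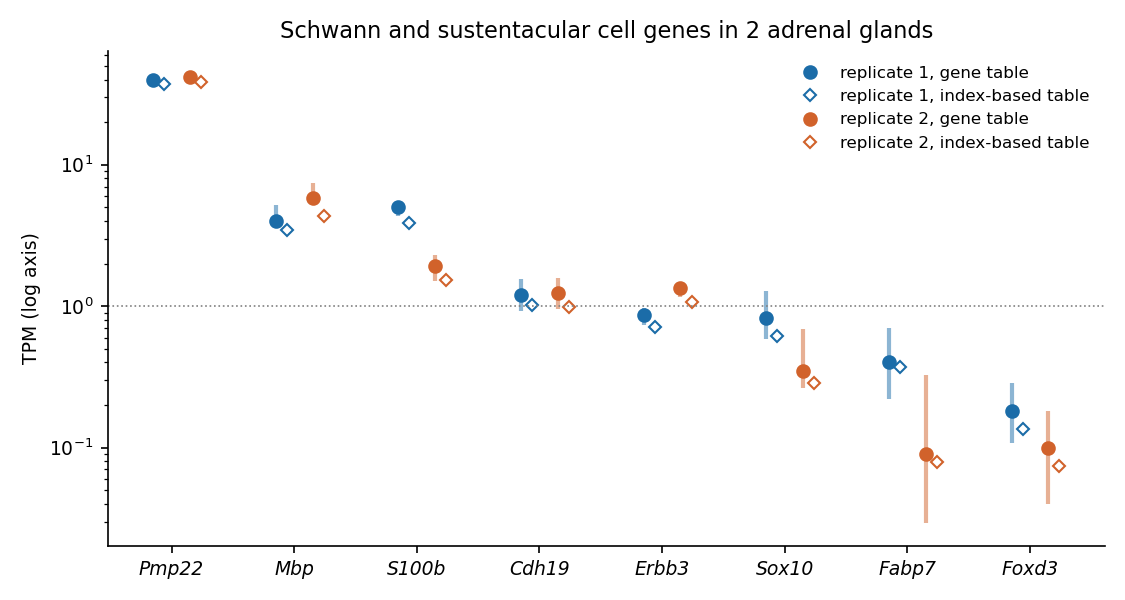
Level of the 8 genes (TPM, log axis) in each animal. Filled circles are the gene table, bars its deposited lower and upper bounds within 1 library, and open diamonds the index-based transcript table summed per gene; the dotted line is 1 TPM. Pmp22 is highest in both animals, S100b is lower in replicate 2, and the bars of Sox10, Fabp7 and Foxd3 overlap between the animals.

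Among the 3 genes shared by the whole lineage, Sox10 is on chromosome 15 (mm10, 79154908 to 79165240, minus strand). It had 0.83 TPM in replicate 1 and 0.35 TPM in replicate 2, from 46 and 26 expected counts. The deposited bounds, 0.587 to 1.29 and 0.266 to 0.684 TPM, overlapped. TMM-scaled counts, which correct for depth and composition, gave a log2 ratio of replicate 2 over replicate 1 of -0.65, with a counting interval of -1.42 to 0.06 that spans 0. The animals differed more in TPM than in counts, and the gene's effective length, by which TPM divides, was 1421.82 bases in replicate 1 and 2266.39 in replicate 2. In replicate 1 the counts were assigned to Sox10-202 (863 bases, 65.63% of the gene's TPM) and Sox10-203 (2780 bases, 34.37%), and in replicate 2 mostly to Sox10-201 (2713 bases, 81.26%). The deposited bounds of Sox10-203 and Sox10-201 reached nearly 0 in both animals, so this switch of transcript cannot be told from the error of assignment.

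S100b encodes a calcium-binding protein of glia that adipocytes also make. The gene is on chromosome 10 (76253853 to 76261159, plus strand) and has 1 annotated transcript. It had 5 TPM (269 counts) in replicate 1 and 1.92 TPM (88 counts) in replicate 2, and the deposited bounds, 4.34 to 5.52 and 1.50 to 2.29 TPM, did not overlap. The log2 ratio was -1.45 with a counting interval of -1.82 to -1.10, and replicate 1 was 2.74-fold higher in scaled counts. The index-based table gave 3.87 and 1.54 TPM. The antisense gene Dip2a (1676 and 1674 counts) overlaps 1731 bases of the S100b gene but none of its exon bases.

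Erbb3, the lineage's neuregulin receptor, lies on chromosome 10 (128567523 to 128589652, minus strand). Its level was 0.86 TPM (198 counts) in replicate 1 and 1.34 TPM (262 counts) in replicate 2, with a log2 ratio of 0.56 (counting interval 0.29 to 0.84). The deposited bounds did not overlap. Of the 3 lineage genes, Erbb3 was thus higher in replicate 2, while Sox10 and S100b had their larger values in replicate 1.

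The members tied to immature or non-myelinating cells were at low levels. Cdh19, an adhesion molecule of Schwann cell precursors (chromosome 1, 110888326 to 110977584, minus strand), had 1.20 TPM (131 counts) and 1.23 TPM (118 counts). The animals were level, with a log2 ratio of 0.01. Its long transcript, Cdh19-201, held 67.46% and 70.91% of the TPM, from 120.53 and 109.88 counts. Cdh19-202, a noncoding transcript of 787 bases, held the rest on 10.47 and 8.12 counts. Foxd3 (chromosome 4, 99656299 to 99658622, plus strand) had 0.18 TPM from 16 counts and 0.10 TPM from 7 counts. Its ratio of -0.99 had a counting interval of -2.56 to 0.33. A miRNA gene, Gm23366, lies within its exon over 89 bases and had 0 counts in both animals.

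Fabp7, a fatty acid binding protein of immature glia (chromosome 10, 57784881 to 57788450, plus strand), was the scarcest by counts. It had 0.40 TPM from 11 counts in replicate 1 and 0.09 TPM from 2 counts in replicate 2. The ratio of scaled counts was 4.93-fold with a counting interval of 1.08 to 45.7, and the mean of 6.5 counts lies under the limit of 10 used for ratios. Fabp7 has abundant relatives in this tissue. Fabp4, the adipocyte member of the family, had 434.75 and 220.54 TPM. The stretch below, coding bases 265 to 317 of the reference transcripts Fabp7-201 and Fabp4-201, is shown because it holds their longest shared run, 17 bases in capitals.
Fabp7: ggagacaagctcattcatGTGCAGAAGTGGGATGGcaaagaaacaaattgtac
Fabp4: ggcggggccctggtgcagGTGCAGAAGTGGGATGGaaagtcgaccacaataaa
No 50-base word of Fabp7 occurred in the transcripts of any other gene, and the same was true of Sox10, S100b, Erbb3, Cdh19 and Pmp22. Foxd3 shared 2.59% of its words and Mbp 0.345%.

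The 2 myelin members had the highest mean levels of the 8, but the Mbp counts were mostly assigned to transcripts other than those of compact myelin. Mbp, named for myelin basic protein, spans chromosome 18 from 82475146 to 82585637 (plus strand) and has 16 annotated transcripts. Its level was 4.03 TPM (627 counts) in replicate 1 and 5.79 TPM (697 counts) in replicate 2. The replicate 1 value lies below its own deposited bounds, 4.09 to 5.19 TPM. The log2 ratio of scaled counts was 0.31 (counting interval 0.15 to 0.47). Of the 16 transcripts, 4 begin at a distal start, that of the Golli proteins, which are made in many tissues, immune cells among them. Mbp-205 and Mbp-201 reach into the classic part of the gene. Mbp-208 ends at base 82514344, before the classic starts, and Mbp-213 is annotated for nonsense-mediated decay, not as coding. The 11 classic transcripts begin 79324 bases downstream and encode the compact-myelin protein. One noncoding transcript begins inside the gene.

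Nearly all Mbp counts were assigned to Golli transcripts. In the alignment-based table the distal start held 597.76 of 627 counts in replicate 1 and 649.03 of 697 in replicate 2, or 95.3% and 93.1%. The index-based table gave 94.7% and 94.0%. Mbp-205 alone had 2.97 and 3.98 TPM, and 94.1% of its 4797 exon bases lie in no classic transcript. The classic transcripts together had 27.14 and 47.97 counts. By TPM their share was 8.68% and 23.5%, and the higher value includes 0.66 TPM assigned to the 354-base Mbp-203 on 5.58 counts. The index-based table gave 11.3% and 13.3%. Only 13.4% of the classic exon bases lie outside Golli transcripts, so the split of reads in the shared exons rests on the estimation programs. Mbp-205 ends at base 82558703, past the first classic start at 82554470. Whether unspliced classic RNA, which total RNA can hold, added to the Mbp-205 counts was not tested.

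**Figure D2:**
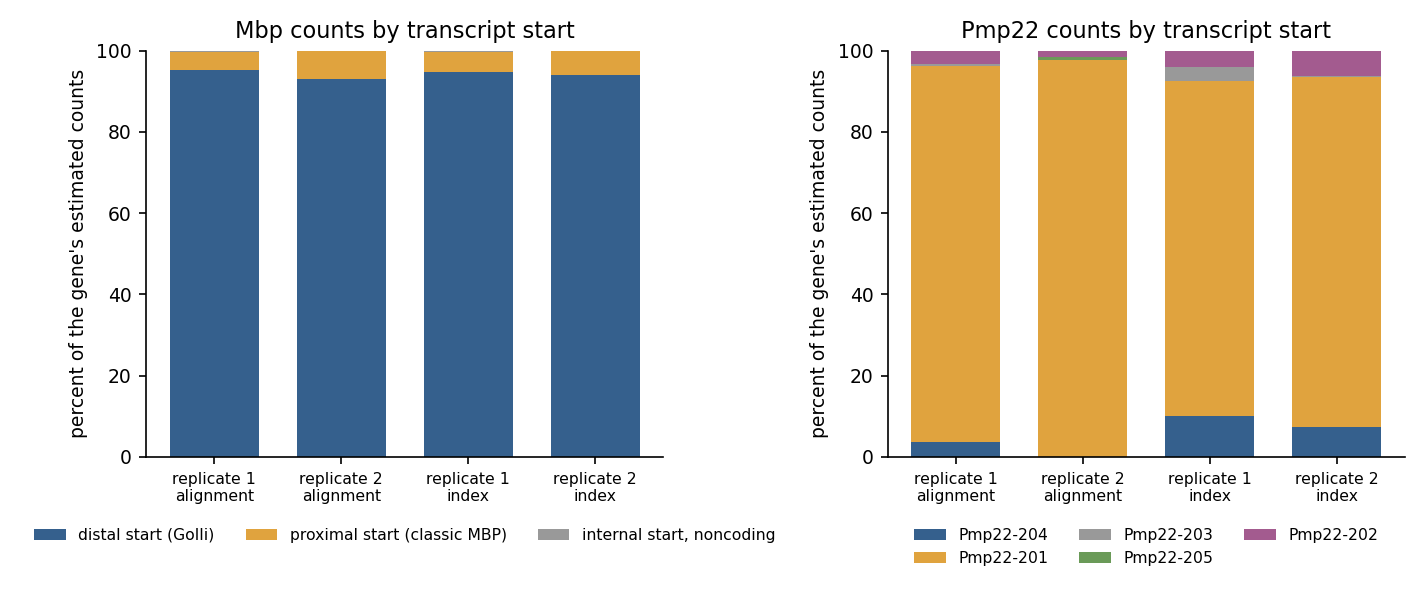
Percent of estimated counts of Mbp (left) and Pmp22 (right) held by transcripts of each start, in each animal and each kind of table. The distal Golli start holds between 93.1% and 95.3% of Mbp counts in all 4 bars, and Pmp22-201 holds between 82.2% and 97.8% of Pmp22 counts.

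Pmp22, a membrane protein of compact myelin that many other cell types also make, lies on chromosome 11 (63128982 to 63159547, plus strand). It had 2473 and 2230 counts and a log2 ratio of 0.01. Its 5 transcripts begin at 5 different starts. Pmp22-201, which begins 2530 bases after the first of them, held 87.1% and 92.5% of the gene's TPM in the alignment-based table and 70.1% and 75.3% in the index-based table. Pmp22-204, from the most upstream start, held 3.34% and 0% in the former and 8.58% and 6.37% in the latter. Pmp22-202 held 8.11% and 3.98%, or 10.9% and 17.0% in the index-based table. Alternative first exons of this gene are known to be used differently by Schwann cells and other cells, but the annotation does not say which of these starts is which, and none was assigned. The RefSeq promoter windows nearest the most used start and the most upstream start follow, on GRCm38.p6, plus strand. Each has 250 bases before and 50 after its RefSeq start. The RefSeq start of the first, base 63131457, lies upstream of the annotated start of Pmp22-201 at 63131512, and the window ends before that base. They are shown because the reads favour Pmp22-201 over Pmp22-204. Capitals mark GC boxes (GGGCGG on either strand).
chr11:63131207-63131506: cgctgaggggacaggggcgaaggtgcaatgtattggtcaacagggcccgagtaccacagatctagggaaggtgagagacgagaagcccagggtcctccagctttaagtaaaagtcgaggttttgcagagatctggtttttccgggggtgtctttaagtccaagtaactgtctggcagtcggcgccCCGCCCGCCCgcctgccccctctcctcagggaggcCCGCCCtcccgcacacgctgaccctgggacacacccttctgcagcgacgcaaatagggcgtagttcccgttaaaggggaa
chr11:63128732-63129031: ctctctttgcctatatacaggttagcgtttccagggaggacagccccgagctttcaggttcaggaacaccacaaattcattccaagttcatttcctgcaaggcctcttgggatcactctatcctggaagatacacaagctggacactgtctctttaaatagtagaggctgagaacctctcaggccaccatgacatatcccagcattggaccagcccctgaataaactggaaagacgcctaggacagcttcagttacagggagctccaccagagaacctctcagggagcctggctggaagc
The first window holds 3 GC boxes, 65, 61 and 30 bases before its RefSeq start, of which the upstream 2 overlap. The second window holds none. GC content was 60.0% in the first and 50.7% in the second. Of 32851 RefSeq promoters of this length, 35.7% hold a GC box. Further RefSeq windows of Pmp22, not printed, lie at the starts of Pmp22-205 and Pmp22-203. The Pmp22-205 window also holds 3 GC boxes, with 72.3% GC. Pmp22-205 held 0.553% and 3.48% of the gene's TPM, or 0.690% and 0.794% in the index-based table. The Pmp22-203 window holds none, with 66.3% GC. Whether GC boxes relate to the use of a start was not tested. Neither printed window holds the SOX words ACAAAG (18.7% of promoters) or ACAATG (12.6%), TATAAA (13.6%) or the EGR word GCGTGGGNG (1.90%), on either strand. RefSeq windows were at hand for 4 of the 8 genes.

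Myelinating and non-myelinating markers were compared in the same animals, first within the 8 genes and then with longer lists. Within the 8, means of log2(TPM + 0.1) were compared. Mbp and Pmp22 lay above Fabp7, Cdh19 and Foxd3 by 4.50 in replicate 1 and 5.41 in replicate 2, a mean of 4.96 ± 0.64 (SD, n = 2). With Mbp counted from its classic transcripts only, the mean difference was 3.65. For classic Mbp alone, without Pmp22, it was 0.82. These last 2 settings were chosen after the data were seen.

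The longer lists gave the opposite order. Across 17 other myelin genes the median level was 0.16 TPM in replicate 1 and 0.25 TPM in replicate 2, and 4 of the 17 reached 1 TPM in both animals. Across 11 other non-myelinating genes the median was 1.37 and 1.18 TPM, and 6 of the 11 reached 1 TPM. The second count is near the 54.5% of protein-coding genes that reached 1 TPM, and the first is below it. The median of the myelin list was lower by a log2 difference of -2.50 in replicate 1 and -1.87 in replicate 2, a mean of -2.18 ± 0.44 (SD, n = 2). Its sign held under each of the alternatives tried, between -0.92 and -2.61.

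**Figure D3:**
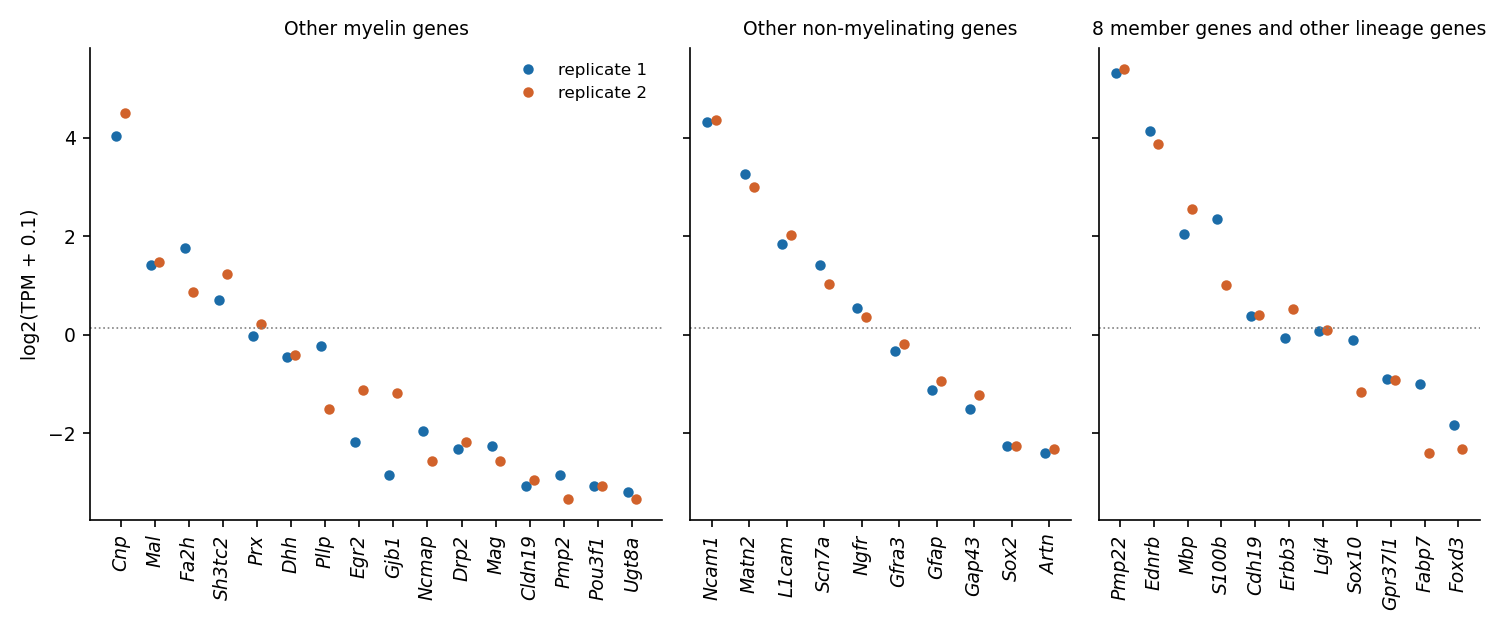
Level of each gene, log2(TPM + 0.1), in replicate 1 and replicate 2 for 16 other myelin genes, 10 other non-myelinating genes, and the 8 genes with 3 further lineage genes. The dotted line is 1 TPM, which 4 of 16, 5 of 10 and 5 of 11 of the genes drawn reach in both animals.

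Many of the other genes of the myelin list had few counts. Pmp2, the lipid-binding protein of peripheral myelin, had 2 and 0 counts. Mag, the adhesion protein of the innermost wrap, had 0.11 and 0.07 TPM from 9 and 5 counts in the gene table, values that lie below their own deposited bounds. The index-based table gave Mag 0.661 and 1.16 TPM, so its level depends on the table. Ncmap, Drp2 and Cldn19 stayed at or under 0.16 TPM in the gene table, and the Ncmap values also lie below their own bounds in both animals. Egr2, the transcription factor that switches on myelination, had 0.12 and 0.36 TPM from 13 and 16 counts. The Egr2 value of replicate 1 lies below its own bounds, 0.161 to 0.670 TPM. Pou3f1, its upstream partner, had 0.02 TPM in each animal, and Ugt8a had 1 and 0 counts. How the Egr2 level relates to the Pmp22 level of at least 39.81 TPM was not tested.

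The 4 genes of the list above 1 TPM were Cnp, Mal, Fa2h and Sh3tc2. Cnp, an enzyme of myelin cytoplasm that is also made elsewhere, led with 16.35 and 22.47 TPM. Mal, a lipid raft protein, had 2.59 and 2.68 TPM. Fa2h, which hydroxylates the fatty acids of myelin lipids, had 3.28 and 1.74 TPM. Sh3tc2, an endosomal protein of Schwann cells, had 1.54 and 2.24 TPM. Prx, which links the sheath to the basal lamina, had 0.89 and 1.07 TPM, and Dhh, the hedgehog ligand of Schwann cells, 0.63 and 0.65 TPM.

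The non-myelinating list was led by Ncam1, an adhesion molecule, with 19.94 and 20.51 TPM, followed by Matn2, a matrix protein, with 9.52 and 7.95 TPM. Ncam1, L1cam (3.49 and 4.00 TPM) and Gap43 (0.25 and 0.33 TPM) are also made by neurons and neuroendocrine cells. Without the genes of the list that neurons make the list difference was -1.48. Scn7a, a sodium channel of Remak cells, had 2.57 and 1.94 TPM. Ngfr, the low-affinity neurotrophin receptor, had 1.37 and 1.18 TPM, and Gfap, the glial filament protein, 0.36 and 0.42 TPM. Gfra3, the receptor for artemin, had 0.70 and 0.78 TPM, while its ligand Artn had 0.09 and 0.10 TPM. Sox2, kept in immature glia, had 0.11 TPM in both animals. Among the 8 genes of the list with a mean of 10 counts or more none was at least 2-fold apart between the animals, which is near the 6.37% of all genes that were.

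Other genes of the lineage lay on both sides of Cdh19. Lgi4, a secreted Schwann cell protein, had 0.95 and 0.97 TPM, and Gpr37l1, a glial receptor, had 0.44 and 0.43 TPM. Ednrb, the endothelin receptor of crest cells and of endothelium, was higher with 17.55 and 14.59 TPM.

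Of 8 other genes of the neuregulin and ErbB pathway, 5 reached 1 TPM in both animals, near the 54.5% of protein-coding genes that did. Erbb2, the partner with which Erbb3 signals, had 1.50 and 1.53 TPM, and Egfr had 3.35 and 2.61 TPM. Erbb4 was at 0.37 and 0.52 TPM. Of the ligands, Nrg1 had 0.61 and 0.93 TPM, Nrg2 0.46 and 1.05 TPM, and Nrg3 1.26 and 1.81 TPM. The Nrg1 values lie below their own deposited bounds in both animals, as does Nrg2 in replicate 1. The index-based table gave Nrg1 0.872 and 0.847 TPM. The proteases that process neuregulin, Adam17 and Bace1, were higher, at 16.26 and 16.52 TPM and at 9.85 and 11.53 TPM. Nrg2 was the 1 gene of the 8 that was 2-fold apart, with 38 and 70 counts and a log2 ratio of 1.03. Its deposited TPM bounds overlapped between the animals. Of all genes with a mean of 10 counts or more, 6.37% were 2-fold apart and 4.26% were higher in replicate 2.

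Lists were also read for other cell types that carry some of these markers. Of 9 crest regulators, 5 reached 1 TPM, again near the share of protein-coding genes, led by Zeb2 with 46.62 and 49.20 TPM, then Sox5 and Sox6. Melanocytes also carry Sox10 and Erbb3. Of 7 melanocyte genes only Mitf, with 2.92 and 3.27 TPM, reached 1 TPM, and Tyrp1 and Slc45a2 had 0 counts in both animals. Golli and Mbp are also products of oligodendrocytes. None of 7 genes of central glia reached 1 TPM, and Mog and Olig2 had 0 counts in both animals and both kinds of table. Opalin had 0 counts in the gene table and 12.6 and 8.22 in the index-based table. Golli is known from lymphocytes too, and none of 5 lymphocyte genes reached 1 TPM, with medians of 0.15 and 0.26 TPM. What part any of these cells had in the Mbp level was not tested.

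Between the animals, 1 of the 7 genes with a mean of 10 counts or more was at least 2-fold apart, S100b. Over all 17751 genes past that limit, 6.37% were, with 2.11% lower and 4.26% higher in replicate 2. The median ratio of the 7 genes was 0.01, equal to that of all genes. Erbb3, Mbp and S100b had deposited TPM bounds that did not overlap, as had 22.6% of all genes tested. For Mbp the replicate 1 value itself lies below its bounds. Fabp7 is not counted, as it fell under the limit. The 8 genes therefore did not move together between these animals: S100b was lower in replicate 2 beyond counting error, Cdh19 and Pmp22 were level, and Erbb3 and Mbp were higher.

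Of the 10 myelin genes past the count limit, 3 were at least 2-fold lower in replicate 2. Among them were Pllp, a myelin tetraspan protein, with a log2 ratio of -1.43, and Fa2h with -1.03. Pllp had 31 and 10 counts and Fa2h 283 and 124. Gjb1, the gap junction protein connexin 32, went the other way with 2 and 16 counts, a mean below the limit. Cdh19, Lgi4, Gpr37l1, Ngfr and Gfap lay between -0.28 and 0.12. Some other listed genes had ratios below 0, Scn7a at -0.48 (counting interval -0.66 to -0.31) and Matn2 at -0.33 (-0.46 to -0.21). Ednrb, which endothelium also makes, was at -0.28 (-0.37 to -0.19). Others lay above 0, Cnp at 0.27 (0.17 to 0.38) and Sh3tc2 at 0.39 (0.15 to 0.63). In all, 5 of the 10 myelin genes had ratios below 0, with a median of 0.09. That is near the 48.8% of all genes past the limit. With Sox10 at -0.65 and Erbb3 at 0.56, the lineage genes gave no single direction.

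Markers of fat and connective tissue differed between the animals in the same direction as S100b. Of all genes past the count limit, 48.8% had ratios below 0 and 2.11% were at least 2-fold lower in replicate 2. Of 9 adipocyte genes 8 had ratios below 0 and 6 were at least 2-fold lower in replicate 2, with a median of -1.03. Their summed level was 1554.25 TPM in replicate 1 and 794.96 TPM in replicate 2, led by Cfd, Fabp4 and Plin1, and no gene of the list was at 0. All 6 fibroblast genes had ratios below 0, with a median of -0.54 and summed levels of 157.20 and 107.97 TPM, and 1 was at least 2-fold lower. Among neuron genes 6 of 7 were below 0, with a median of -0.53, summed levels of 7.94 and 6.62 TPM, and 1, Nefm, at least 2-fold lower (-1.15). All 6 chromaffin genes also had ratios below 0, with a median of -0.23 and summed levels of 2144.16 and 1927.66 TPM. The part of fat, connective tissue or nerve in the S100b and Pllp values was not tested. With 1 library on each side, these ratios have no replicate check.

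**Figure D4:**
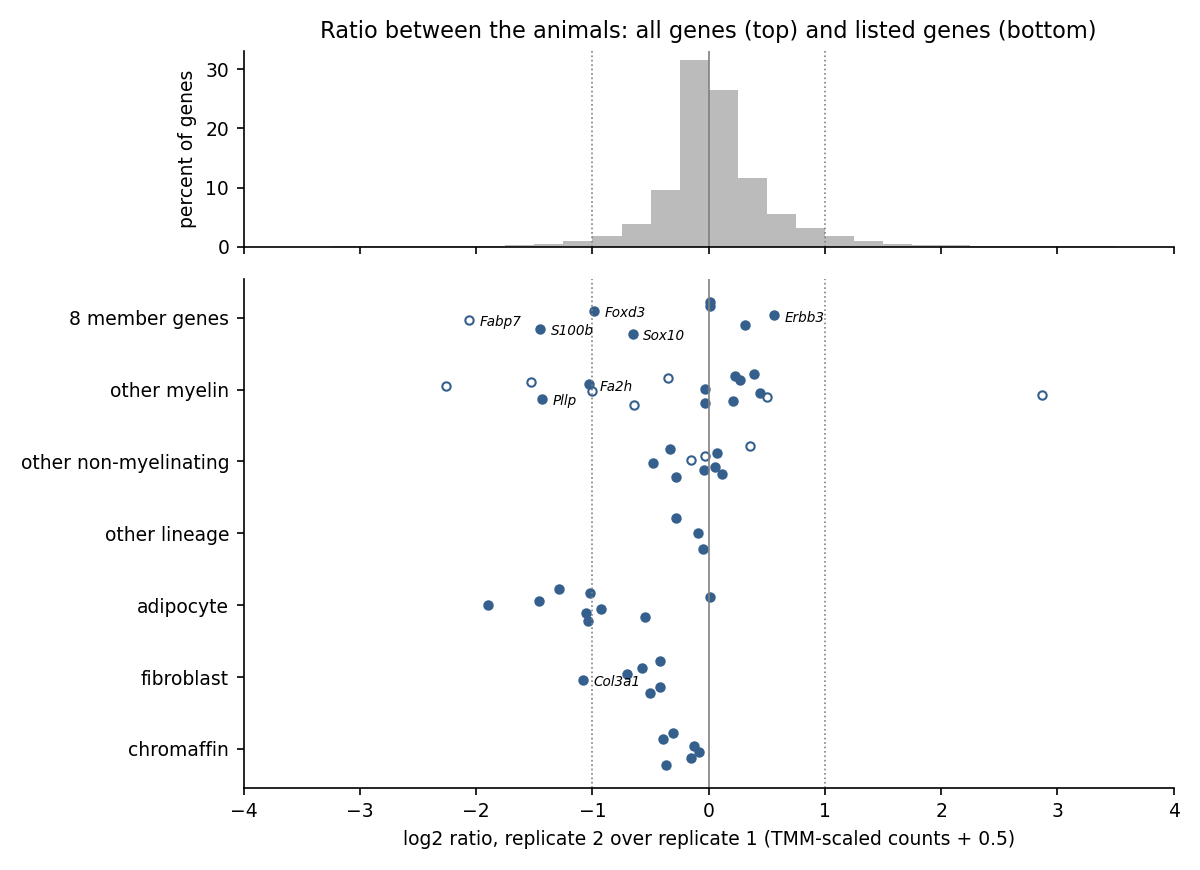
Log2 ratio of TMM-scaled counts, replicate 2 over replicate 1. Top, percent of the 17751 genes with a mean of 10 counts or more in each bin; bottom, genes of 7 lists, filled where the mean is 10 counts or more and open where it is lower, with dotted lines at a 2-fold difference. Among the filled points, S100b, Pllp and Fa2h lie left of the 2-fold line with 6 adipocyte genes. Some open points, Fabp7 among them, also lie left of it. The other lineage and non-myelinating genes drawn lie within the 2-fold lines.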

How the data were processed

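Total RNA (300 ng per library, with ERCC spike-ins) from the adrenal glands of 2 mice was sequenced, per the labels. The kit linked in the labels is directional. The build was mm10 with GENCODE M21, per the labels. Neither the programs nor the use of strand when counting is given in the sources used here. Per library there are 3 tables: genes and transcripts from alignment, and transcripts from a transcript index. Expected counts were deposited as estimates, not normalized. TPM was scaled by the authors over all rows, and FPKM was deposited beside it. Transcript shares in percent were deposited with the alignment-based transcripts. The deposited TPM bounds describe estimation error within 1 library, at a level the file does not give. Some deposited values lie outside their own bounds, among them Mbp, Egr2 and Nrg2 in replicate 1 and Mag, Ncmap, L1cam and Nrg1 in both animals.

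The 26345 rows of tRNAs, spike-ins and phiX174 were left out. Ratios used expected counts scaled by TMM factors (edgeR 4.0.16, R 4.3.3) with 0.5 added, unrounded, over genes with a mean of 10 counts or more; DESeq2 1.42.0 size factors were an alternative. The ratio step was tested on simulated data. Counting intervals are exact (Clopper-Pearson, 95%) and, like the limit of 3 counts, cover counting error only. List differences used log2(TPM + 0.1). Ratios and list values are descriptions without p-values. Members and lists were chosen with earlier results of these data known. Named are the 8 genes, all genes of the myelin, non-myelinating, lineage and neuregulin lists, the top 3 of other lists by mean TPM, listed genes at least 2-fold apart, and transcripts holding at least 10% of a gene's TPM; some listed genes enter counts and medians but are not reported here by name, and other names (0-count, transcript or paralog examples) were added after the values were seen. Python 3.11.15 was used for the rest.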

Additional observations from a re-analysis of the deposited data

How the results depend on the processing

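No paired analysis was possible because the design has 1 group. The ratios of Cdh19 (0.01) and Pmp22 (0.01) and the median ratio of the genes (0.01) lie next to 0, and with DESeq2 size factors they were -0.02 each. Neither difference between myelinating and non-myelinating genes changed sign under the alternatives run, nor did the ratio of any other of the 8 genes. The number of the 8 genes reaching 1 TPM was 4 and ranged from 4 to 5 with 1 animal left out, but was 2 at a limit of 2 TPM. The list difference (main value -2.18, and -2.50 to -1.87 with 1 animal left out) was -1.40 in the index-based table, -0.92 with a pseudocount of 1, -1.65 with means in place of medians, -1.48 without the genes of the list that neurons make, and -1.69 over genes with a mean of 10 counts or more. The difference within the 8 genes (4.96, and 4.50 to 5.41 with 1 animal left out) was 3.42 with a pseudocount of 1. It was 3.65 with classic Mbp transcripts only and 0.82 for classic Mbp without Pmp22, both chosen after the data were seen. The number of genes at least 2-fold apart was 1, and 2 with DESeq2 size factors (Foxd3 added at -1.02), with TPM as deposited (Sox10 added at -1.05) and with no count limit (Fabp7 added). With no count limit the median ratio was -0.32. TPM rescaled over nuclear protein-coding genes raised all levels, Pmp22 to 112.5 and 117.1 and Sox10 to 2.35 and 0.977 TPM. Depth limits Sox10, Foxd3, Fabp7 and classic Mbp, which rest on under 50 counts in each library.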
